A study of Mus musculus with 2 samples.

Results

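The genes described here form the receptor and enzyme system for extracellular purines and lipid mediators: receptors for adenosine, nucleotides, prostaglandins, leukotrienes, lysophosphatidic acid, sphingosine 1-phosphate and cannabinoids, the enzymes that break down extracellular nucleotides and adenosine, and pannexin channels. They were matched by gene name, for a set of families chosen with earlier results of these data known. The match by name also took in *Entpd5*, *Entpd6* and *Entpd7*, which are described below as wholly or partly intracellular enzymes. The names matched 58 rows with 57 gene symbols, out of 23537 symbols in the deposited tables. The cells came from mouse small-intestinal organoids, gut epithelium grown from crypts in Matrigel with epidermal growth factor, noggin and R-spondin, and derived from ChgA-GFP mice, in which green fluorescent protein (GFP) reports on the chromogranin A gene. Dissociated cells were sorted by fluorescence into a GFP+ fraction, about 1% of the epithelial cells per the labels, and the remaining GFP- cells. Both fractions carried the reporter, and 1 polyA+ RNA library was sequenced from each (2 in all). How many mice or cultures each library drew on is not given in the sources used here. The comparison asks which genes set the chromogranin A reporter cells, enriched for serotonin-producing enterochromaffin cells, apart from the rest of the epithelium.

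Extracellular ATP, which leaves cells through vesicles or pannexin channels, acts on P2X ion channels and on G protein-coupled P2Y receptors. Ecto-nucleotidases of the Entpd family trim it to AMP, the ecto-5'-nucleotidase Nt5e turns AMP into adenosine, and adenosine deaminase (Ada) ends the signal at the adenosine receptors. Prostaglandin E2, lysophosphatidic acid and sphingosine 1-phosphate are made from membrane lipids and act close to where they are made. In the gut these mediators are known to bear on secretion, motility, inflammation and the release of hormones.

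Start-site windows (250 bases before to 50 after, GRCm38.p6, from RefSeq) are printed for the 4 members with the largest GFP+ over GFP- difference that have a window, so that their base composition can be compared. Capitals mark CG dinucleotides, and each run reads 5' to 3' on the gene's strand.
*Entpd3*, chr9:120539568-120539867, plus strand: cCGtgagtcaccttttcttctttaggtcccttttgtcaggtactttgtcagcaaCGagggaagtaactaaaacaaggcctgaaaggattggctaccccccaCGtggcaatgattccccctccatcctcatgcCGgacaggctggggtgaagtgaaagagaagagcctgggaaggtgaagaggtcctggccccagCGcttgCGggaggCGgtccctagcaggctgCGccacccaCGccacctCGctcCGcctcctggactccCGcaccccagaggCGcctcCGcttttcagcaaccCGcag
*Nt5e*, chr9:88327359-88327658, plus strand: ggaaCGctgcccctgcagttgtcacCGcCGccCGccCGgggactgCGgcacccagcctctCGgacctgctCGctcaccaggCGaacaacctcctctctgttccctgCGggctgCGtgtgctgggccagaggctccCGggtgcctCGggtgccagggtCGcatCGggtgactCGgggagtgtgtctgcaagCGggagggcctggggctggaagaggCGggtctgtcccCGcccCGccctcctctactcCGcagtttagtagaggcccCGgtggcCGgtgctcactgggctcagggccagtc
*Adora3*, chr3:105904171-105904470, plus strand: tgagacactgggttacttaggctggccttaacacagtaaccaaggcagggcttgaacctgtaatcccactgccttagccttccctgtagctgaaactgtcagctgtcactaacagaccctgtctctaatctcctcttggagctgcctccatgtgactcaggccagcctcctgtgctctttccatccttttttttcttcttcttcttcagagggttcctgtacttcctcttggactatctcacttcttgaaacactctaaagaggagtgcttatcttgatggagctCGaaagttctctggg
*Ptger3*, chr3:157566626-157566925, plus strand: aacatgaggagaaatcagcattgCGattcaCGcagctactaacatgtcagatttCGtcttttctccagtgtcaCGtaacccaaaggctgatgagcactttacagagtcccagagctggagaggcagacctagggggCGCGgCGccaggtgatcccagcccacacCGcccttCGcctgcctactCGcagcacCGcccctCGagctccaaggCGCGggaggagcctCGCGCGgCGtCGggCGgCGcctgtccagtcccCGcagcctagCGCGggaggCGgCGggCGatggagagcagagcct

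The 4 windows differed in CG content. Those of *Ptger3* and *Nt5e* hold 27 and 23 CG dinucleotides, that of *Entpd3* holds 15, and that of *Adora3* holds 1. Over all 32817 RefSeq windows of this length the median was 7, and the upper quartile was 20. The windows of *Entpd5* (33), *Ptger4* (25) and *P2ry4* (4), other members at least 4-fold higher in GFP+, spread as widely. 4 short motifs were searched on both strands: CAGATG (an E-box bound by NeuroD factors), GTTGCC (a motif of RFX factors), TGACG (the core of the cyclic AMP response element) and TATAAA. *Adora2a* and *Ptger1*, also at least 4-fold higher in GFP+, had no window and were not searched. Of the 7 windows of members at least 4-fold higher, 0 held CAGATG, 0 held GTTGCC, 0 held TATAAA and 1 held TGACG, in *Entpd5* at 15 bases before the start site. No matches overlapped there. Among all windows, 17.2% held CAGATG, 12.5% GTTGCC, 20.8% TGACG and 13.6% TATAAA.

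Levels are in FPKM, a fragment count divided by transcript length and library size, so levels can be set beside each other between genes. With 1 library per fraction there is no replicate error and no test, and differences are given by size only, as log2((FPKM + 1) in GFP+ / (FPKM + 1) in GFP-). The limit for a gene called higher or lower was 2 on that scale, or 4-fold. The deposited lower confidence bound is 0 for each of the 58 rows in both libraries, so the deposited intervals of the 2 libraries overlap for each of them. Upper bounds lay at a median of 2.35-fold (GFP+) and 2.38-fold (GFP-) of the value over the members compared. The files give no depth, but the lowest values fall in steps that correspond to about 59.7 fragments per FPKM and kilobase in GFP+ and 58.4 in GFP-. On that scale a 2 kb transcript listed at 0 has a limit of 0.0251 FPKM in GFP+ cells against 0.0257 FPKM in GFP- cells (3 fragments, counting error only).

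The sort was checked against marker genes. At least 4-fold higher levels in GFP+ were found for all 8 enteroendocrine markers that had an estimate, with summed levels of 2852 FPKM in GFP+ cells against 50.2 FPKM in GFP- cells. *Chga* and *Chgb* had no estimate in GFP+, where their loci exceeded the fragment limit of Cuffdiff. Paneth cell markers (7 of 7 lower) summed to 1123 FPKM in GFP+ cells against 18160 FPKM in GFP- cells, and stem cell markers (2 of 5 lower) to 346 FPKM in GFP+ cells against 1373 FPKM in GFP- cells. Tuft cell markers (1 of 6 lower, *Rgs13*) summed to 8.77 FPKM in GFP+ cells against 22.2 FPKM in GFP- cells. Among them *Dclk1* had a higher value in GFP+, at 2.58 FPKM in GFP+ cells against 1.31 FPKM in GFP- cells. Immune markers summed to 9.83 FPKM in GFP+ cells against 2.54 FPKM in GFP- cells, with 1 of 3 compared higher. That was *Lyz2*, at 6.61 FPKM in GFP+ cells against 0.858 FPKM in GFP- cells. The others compared were *Cd68*, with a difference of 1.22, and *Itgam*, with -0.67. *Cd79a* was at 0 in both and *Ptprc* at 0.0224 FPKM in each. Stromal and endothelial markers summed to 15.0 FPKM in GFP+ cells against 0.452 FPKM in GFP- cells, with 1 of 3 compared higher. That was *Pecam1*, at 10.4 FPKM in GFP+ cells against 0.187 FPKM in GFP- cells. The others compared, *Col3a1* and *Col1a1*, had differences of 1.37 and 1.34. *Cdh5* was at 0.00845 FPKM in GFP+ and 0 in GFP-, and *Kdr* at 0 in GFP+ and 0.00606 FPKM in GFP-. Neural and glial markers (0 of 2 called) summed to 3.80 FPKM in GFP+ cells against 0.637 FPKM in GFP- cells. Enterocyte markers (2 of 8 lower) summed to 1844 FPKM in GFP+ cells against 3827 FPKM in GFP- cells. Of these sums *Fabp1* made up 470 FPKM in GFP+ and 2157 FPKM in GFP-. *Sis*, *Vil1* and *Apoa4* had higher values in GFP+, with differences of 1.09, 0.38 and 0.115, and the other enterocyte markers lower ones. Goblet cell markers (2 of 6 lower) summed to 1354 FPKM in GFP+ cells against 3165 FPKM in GFP- cells, with *Spink4* at 139 and 1535 FPKM. *Muc2* and *Fcgbp* had higher values in GFP+, with differences of 0.35 and 0.31, and the other goblet markers lower ones. The part of any of these cell types in the results below was not tested. In sorted bulk RNA, fewer cells of a type and less RNA per cell cannot be told apart.

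Across the system, 9 genes were higher by 4-fold or more in GFP+ and 1 was at least 4-fold lower. These were *Entpd3*, *Nt5e*, *Adora3*, *Ptger3*, *Adora2a*, *Entpd5*, *Ptger4*, *P2ry4* and *Ptger1* on the higher side and *Ada* on the lower side. The comparison took in the 25 members whose higher value reached 1 FPKM, so that 36.0% of them were higher and 4.00% lower. Of all 11868 genes compared, 7.09% were at least 4-fold higher and 4.59% at least 4-fold lower. A member below 1 FPKM in GFP- enters only through a higher GFP+ value, which fixes its sign: this holds for 7 of the 25 and for 6 of the 9. The 6 are *Entpd3*, *Nt5e*, *Adora3*, *Ptger3*, *Adora2a* and *P2ry4*. Without the filter the count was 9 of 57 members, and 3.57% of all 23532 symbols were higher. The median difference over the 25 was -0.06, beside -0.12 over all genes compared, with 12 members above 0 and 13 below. The median member thus lay near the median gene, and a subset lay far from both. The values nearest the limit of 2 were 2.11 for *Ptger1* and -2.05 for *Ada* inside it, and -1.74 for *Entpd6* and -1.56 for *P2ry6* outside it.

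**Figure D1:**
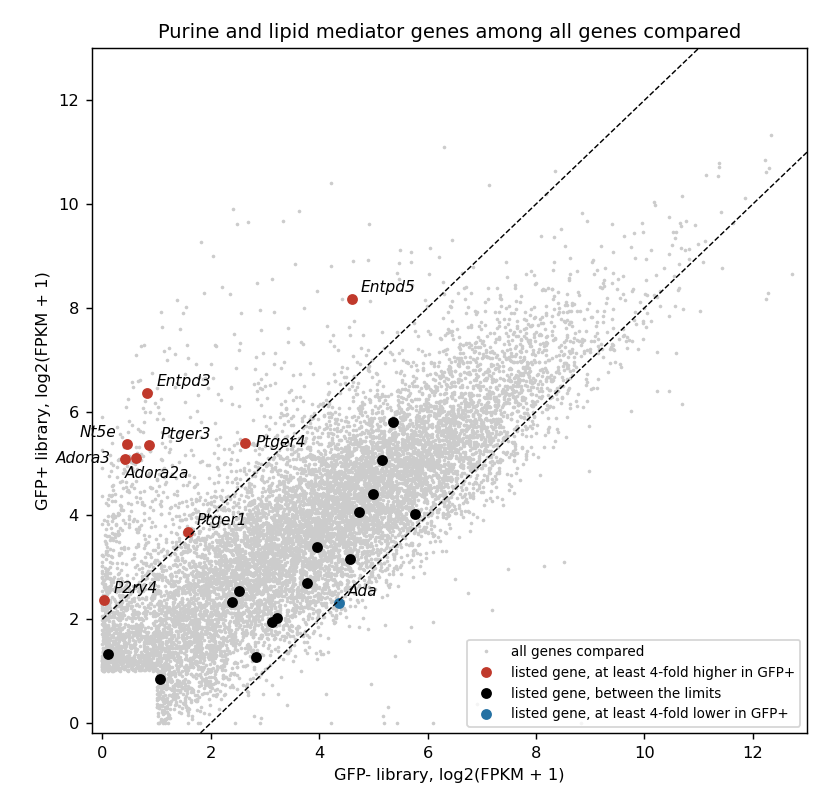
Each point is a gene, with its log2(FPKM + 1) in the GFP+ library on the y axis and in the GFP- library on the x axis; dashed lines mark a 4-fold difference. The 9 named genes above the upper line range from *Ptger1* at a difference of 2.11 to *Entpd3* at 5.54, and *Ada* sits just past the lower line at -2.05.

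*Panx1* and 3 of the P2Y receptors had lower values in GFP+ than in GFP-. *Panx1*, the pannexin that forms ATP-releasing channels, was at 7.99 FPKM in GFP+ cells against 22.7 FPKM in GFP- cells (difference -1.40). *Panx2* and *Panx3* were below 0.04 FPKM in both libraries. Among the P2Y receptors, *P2ry1*, a receptor for ADP, was at 5.53 FPKM in GFP+ cells against 12.7 FPKM in GFP- cells (-1.07). Another annotated gene on the opposite strand shares 23.1% of the *P2ry1* exonic bases (GENCODE M21), so its reads may not have been separated. *P2ry2*, which responds to ATP and UTP, was at 2.87 FPKM in GFP+ cells against 7.80 FPKM in GFP- cells (-1.19). *P2ry6*, a UDP receptor, was at 1.42 FPKM in GFP+ cells against 6.14 FPKM in GFP- cells (-1.56), and with a pseudocount of 0.1 its difference of -2.04 passed the limit. None of these 3 receptors was past the 4-fold limit as reported.

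The exception was *P2ry4*, a nucleotide receptor of the gut epithelium in mice (chromosome X, 100590154 to 100594869, mm10, as listed in the files). It was at 4.15 FPKM in GFP+, with an upper bound of 9.51, and at 0.0264 FPKM in GFP-, with an upper bound of 0.0828. Its difference was 2.33, and 0.86 with a pseudocount of 5. No ratio is given because the GFP- value is so low. The limit given above for a 2 kb transcript does not apply directly, as 4434 exonic bases are annotated for this gene. *P2ry4* made up 29.6% of the summed P2Y FPKM in GFP+ and 0.0988% in GFP-. *P2ry1* was the most abundant P2Y receptor in either library, at 39.4% of the sum in GFP+ and 47.7% in GFP-, and the sum was 14.0 FPKM in GFP+ cells against 26.7 FPKM in GFP- cells.

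Of the P2X channels, which open on binding ATP, only *P2rx4* reached 1 FPKM. It was at 32.4 FPKM in GFP+ cells against 34.7 FPKM in GFP- cells, a difference of -0.10 that was above 0 with the libraries scaled to a median ratio of 0 (0.39) or to a common total (0.51). It held 97.1% of the P2X sum in GFP+ and 99.0% in GFP-. Its neighbour on chromosome 5, *P2rx7*, was at 0.0489 FPKM in GFP+ cells against 0.0109 FPKM in GFP- cells. *P2rx6* was at 0.772 FPKM in GFP+ cells against 0.0630 FPKM in GFP- cells.

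Of the 10 enzymes 8 were compared, and of these 3 were higher by 4-fold or more in GFP+ and 1 was lower. The shares of all genes compared were 7.09% and 4.59%. The leading enzymes differed between the fractions. *Entpd3*, an ecto-nucleotidase that removes phosphates from ATP and ADP (chromosome 9, 120539818 to 120568326), was at 81.3 FPKM in GFP+ cells against 0.775 FPKM in GFP- cells, with upper bounds of 193 and 2.12. The difference of 5.54 stood 35th among the 11868 genes compared, and the FPKM ratio was 105. *Nt5e*, the enzyme that makes adenosine from AMP (chromosome 9, 88327609 to 88372089), was at 40.3 FPKM in GFP+ cells against 0.365 FPKM in GFP- cells, with upper bounds of 86.5 and 0.996. Its difference was 4.92, rank 74, and its ratio 110. *Entpd5*, an enzyme of the endoplasmic reticulum that hydrolyses UDP and GDP (chromosome 12, 84373876 to 84409029), was at 286 FPKM in GFP+ cells against 23.3 FPKM in GFP- cells, with upper bounds of 677 and 50.1. It had a difference of 3.56 and stood 164th in level among 23532 symbols in GFP+ and 4370th in GFP-.

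Other nucleotidases lay between the limits. *Entpd6*, a Golgi and secreted enzyme, was at 15.3 FPKM in GFP+ cells against 53.5 FPKM in GFP- cells (-1.74). *Entpd2*, an ATPase of the cell surface, was at 20.4 FPKM in GFP+ cells against 30.9 FPKM in GFP- cells (-0.58, and 0.02 with a common total). Of its exonic bases 28.8% are shared with *Npdc1* on the same strand (GENCODE M21), which was at 89.7 FPKM in GFP+ cells against 23.4 FPKM in GFP- cells, so reads of the pair may not have been separated. *Entpd8*, another surface nucleotidase, was at 54.9 FPKM in GFP+ cells against 40.3 FPKM in GFP- cells (0.44). *Entpd7*, an intracellular enzyme, was at 4.06 FPKM in GFP+ cells against 4.26 FPKM in GFP- cells (-0.06, above 0 under both other scalings). *Ada* (chromosome 2, 163726571 to 163750239) was at 3.96 FPKM in GFP+ cells against 19.6 FPKM in GFP- cells, a difference of -2.05 that missed the limit with a median ratio of 0 (-1.64), a common total (-1.51) and a pseudocount of 5 (-1.46). *Entpd4* was listed on 2 rows, the first at 0.0112 FPKM in either library, the second at 0.0613 FPKM in GFP+ cells against 0.0502 FPKM in GFP- cells. The rows lie at copies of the gene on chromosome 14 (69337151 to 69366742 and 69555401 to 69584992), so these values are uncertain.

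*Entpd5* made up 56.5% of the summed FPKM of the 10 enzymes in GFP+ and 13.5% in GFP-. *Entpd6* held 3.02% in GFP+ and led in GFP- with 30.9%. The sum itself was 506 FPKM in GFP+ cells against 173 FPKM in GFP- cells. The shares of the surface enzymes ran in both directions. *Entpd3* held 16.1% of the sum in GFP+ and 0.447% in GFP-, and *Nt5e* held 7.97% in GFP+ and 0.211% in GFP-. *Entpd8* held 10.9% in GFP+ and 23.3% in GFP-, and *Entpd2* held 4.02% in GFP+ and 17.9% in GFP-. A share also depends on the rest of the sum, which in GFP+ was mostly *Entpd5*. The *Entpd8* level itself was higher in GFP+, at 54.9 FPKM in GFP+ cells against 40.3 FPKM in GFP- cells.

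Of the 4 adenosine receptors 3 were compared, and 2 of these were higher by 4-fold or more in GFP+, beside 7.09% of all genes compared. Both of the 2 entered the comparison only through their GFP+ values. The leading receptors differed between the fractions. *Adora2a*, which raises cyclic AMP through the stimulatory G protein (chromosome 10, 75316877 to 75334792), was at 33.4 FPKM in GFP+ cells against 0.531 FPKM in GFP- cells, with upper bounds of 71.8 and 1.45. *Adora3*, which signals through the inhibitory G protein (listed locus on chromosome 3, 105870858 to 105924044), was at 32.9 FPKM in GFP+ cells against 0.330 FPKM in GFP- cells, with upper bounds of 75.9 and 0.986. The differences were 4.49 and 4.67, ranks 113 and 93 among all genes compared. *Adora1*, a second receptor coupled to the inhibitory G protein, was at 3.08 FPKM in GFP+ cells against 8.32 FPKM in GFP- cells (-1.19). Another gene on the opposite strand, listed at 0 in both libraries, shares 20.1% of the *Adora1* exonic bases. *Adora2b* was at 0.209 FPKM in GFP+ cells against 0.190 FPKM in GFP- cells. Thus *Adora2a* and *Adora3* held 48.0% and 47.3% of the adenosine receptor sum in GFP+ and 5.67% and 3.52% in GFP-, where *Adora1* held 88.8%. The sum was 69.5 FPKM in GFP+ cells against 9.37 FPKM in GFP- cells. The listed *Adora3* locus spans *Tmigd3*, which shares 20.9% of the *Adora3* exonic bases on the same strand, so part of the *Adora3* value may be reads of that gene. Both receptors and *Nt5e* are also known from immune or stromal cells. Both marker sums were higher in GFP+. The immune sum was 9.83 FPKM in GFP+ cells, mostly *Lyz2*, against 2.54 FPKM in GFP- cells. The stromal and endothelial sum was 15.0 FPKM in GFP+ cells, mostly *Pecam1*, against 0.452 FPKM in GFP- cells. Not all markers of these lists were higher in GFP+, as given above for *Itgam* and *Kdr*. The part of such cells in these values was not tested.

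**Figure D2:**
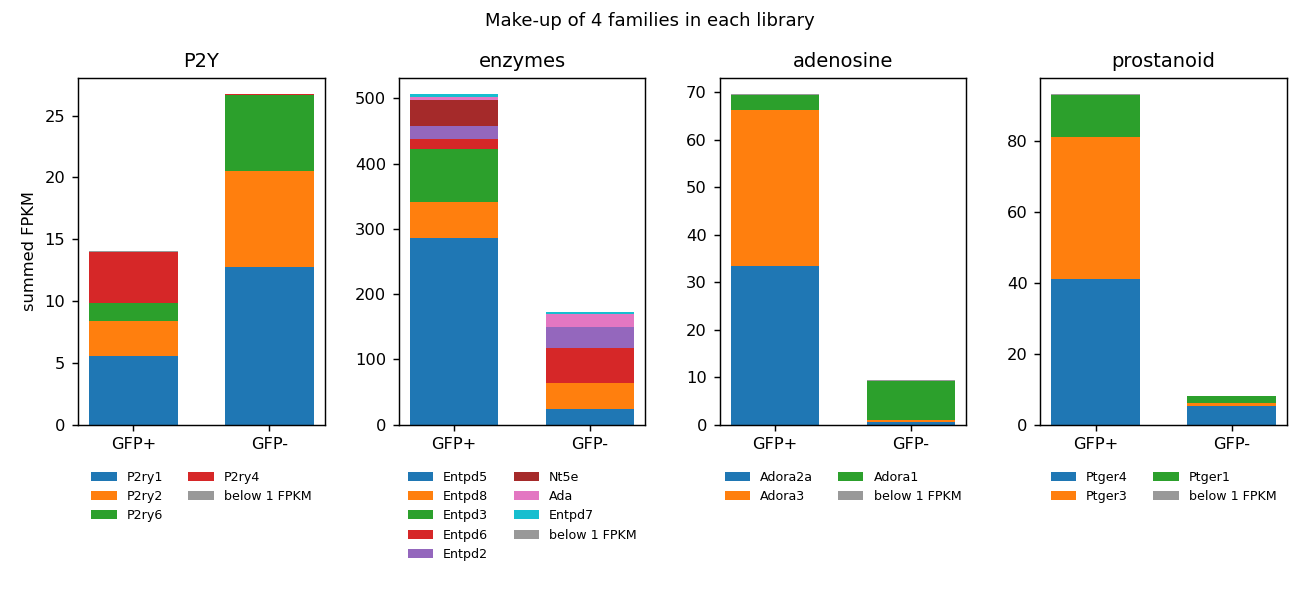
Stacked bars give the summed FPKM of 4 families, the GFP+ library on the left and the GFP- library on the right of each panel, with a colour for each gene that reached 1 FPKM in a library and grey for the rest; the y axes differ. *Adora2a* and *Adora3* fill the GFP+ adenosine receptor bar of 69.5 FPKM, and *Adora1* fills most of the GFP- bar of 9.37 FPKM.

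All 3 prostaglandin receptors that were detectable at 1 FPKM were receptors for prostaglandin E2, and all 3 were at least 4-fold higher in GFP+. Of all genes compared 7.09% were, and *Ptger3* entered the comparison only through its GFP+ value. *Ptger3* (EP3, coupled mainly to the inhibitory G protein; chromosome 3, 157566892 to 157644758) was at 40.1 FPKM in GFP+ cells against 0.826 FPKM in GFP- cells, with upper bounds of 86.3 and 2.23. Its difference was 4.49 and its ratio 48.5. *Ptger4* (EP4, coupled to the stimulatory G protein; chromosome 15, 5233399 to 5244187) was at 40.9 FPKM in GFP+ cells against 5.18 FPKM in GFP- cells, with upper bounds of 87.9 and 11.9. Its difference was 2.76 and its ratio 7.91. *Ptger1* (EP1, which raises intracellular calcium) was at 11.8 FPKM in GFP+ cells against 1.98 FPKM in GFP- cells, with upper bounds of 40.9 and 14.4. Its difference of 2.11 missed the limit with a pseudocount of 5 (1.27).

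The *Ptger1* value is the least secure of the 3. Of its exonic bases 71.0% are shared with another annotated gene on the opposite strand (GENCODE M21). The use of strand in counting is not given in the sources used here, so its reads may not have been separated. The fourth prostaglandin E2 receptor, *Ptger2*, was listed at 0 in both libraries, as were *Ptgfr* and *Ptgir*, the receptors for prostaglandin F2alpha and prostacyclin. *Ptgdr* was at 0.161 FPKM in GFP+ cells against 0.00538 FPKM in GFP- cells, and *Ptgdr2*, the other prostaglandin D2 receptor, at 0.0987 FPKM in GFP+ and 0 in GFP-. The thromboxane receptor *Tbxa2r* was at 0.0103 FPKM in each. The family summed to 93.1 FPKM in GFP+ cells against 8.00 FPKM in GFP- cells. *Ptger4* led in both, with 44.0% of the sum in GFP+ and 64.7% in GFP-, and *Ptger3* made up 43.0% in GFP+ and 10.3% in GFP-.

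Of the 5 lysophosphatidic acid receptors 2 were compared, and of the 5 sphingosine 1-phosphate receptors 1. None of those compared passed the 4-fold limit, beside 7.09% of all genes compared that were higher and 4.59% that were lower. *Lpar6* was at 15.8 FPKM in GFP+ cells against 25.8 FPKM in GFP- cells (-0.68), and *Lpar1* at 9.44 FPKM in GFP+ cells against 14.5 FPKM in GFP- cells (-0.57, and 0.00 with a common total). Both answer to lysophosphatidic acid, and their shares of the family sum were 61.0% and 36.5% in GFP+ and 63.7% and 35.8% in GFP-. The *Lpar6* gene lies in an intron of *Rb1*, and its listed locus (chromosome 14, 73195502 to 73325791) is that of the host gene. *S1pr2*, a sphingosine 1-phosphate receptor, was at 4.82 FPKM in GFP+ cells against 4.72 FPKM in GFP- cells (0.03) and was the only member of its family above 0.1 FPKM in either library.

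Leukotriene and cannabinoid receptors were near the bottom of the range. *Ltb4r2*, the lower-affinity leukotriene B4 receptor, was at 0.804 FPKM in GFP+ cells against 1.09 FPKM in GFP- cells (-0.21, above 0 under both other scalings). *Ltb4r1* was at 0.112 FPKM in GFP+ cells against 0.0839 FPKM in GFP- cells. Both cysteinyl leukotriene receptors, *Cysltr1* and *Cysltr2*, were listed at 0 in both libraries. *Cnr1*, the cannabinoid receptor best known from neurons, was at 1.50 FPKM in GFP+ cells against 0.0709 FPKM in GFP- cells, a difference of 1.22, which passed the limit with a pseudocount of 0.1 (3.23). *Cnr2* was at 0.227 FPKM in GFP+ cells against 0.0569 FPKM in GFP- cells.

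The remaining members stayed below 1 FPKM in both libraries, 32 of 57 in all. Of these, 8 were listed at 0 in both, 2 at 0 in GFP+ only and 5 at 0 in GFP- only. The 8 were *Cysltr1*, *Cysltr2*, *P2rx5*, *P2ry12*, *P2ry13*, *Ptger2*, *Ptgfr* and *Ptgir*. *P2ry12* and *P2ry13* are ADP receptors known from platelets, microglia and other blood-derived cells. *Entpd1*, *Panx3*, *Ptgdr2*, *S1pr1* and *S1pr4* were between 0.0160 and 0.0987 FPKM in GFP+ and at 0 in GFP-. *P2rx1* and *P2ry10* were at 0 in GFP+, against 0.0434 and 0.00614 FPKM in the GFP- library. *P2ry14* was counted on a row joined with *F630111L10Rik*, at 0.0561 FPKM in GFP+ cells against 0.0129 FPKM in GFP- cells. Of the others, *Lpar3* reached 0.402 FPKM in GFP+ against 0.0282 FPKM in GFP-, and *Lpar2*, *Lpar4*, *P2rx2*, *P2rx3*, *Panx2*, *S1pr3* and *S1pr5* stayed below 0.2 FPKM in both.

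Ordered by level, the GFP+ library was led by *Entpd5*, *Entpd3*, *Entpd8*, *Ptger4*, *Nt5e*, *Ptger3*, *Adora2a*, *Adora3* and *P2rx4*, the 9 members of at least 30 FPKM. In the GFP- library 4 members reached 30 FPKM, *Entpd6*, *Entpd8*, *P2rx4* and *Entpd2*, followed by *Lpar6*, *Entpd5* and *Panx1*. Neighbours in either order differ by less than the deposited bounds allow to be told apart. At least 1 FPKM was listed for 24 members in GFP+ and 18 in GFP-. The whole system summed to 758 FPKM in GFP+ cells against 322 FPKM in GFP- cells. Of these sums *Entpd5*, an enzyme of the endoplasmic reticulum, made up 286 FPKM in GFP+ and 23.3 FPKM in GFP-. The sums therefore do not measure extracellular signalling alone.

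**Figure D3:**
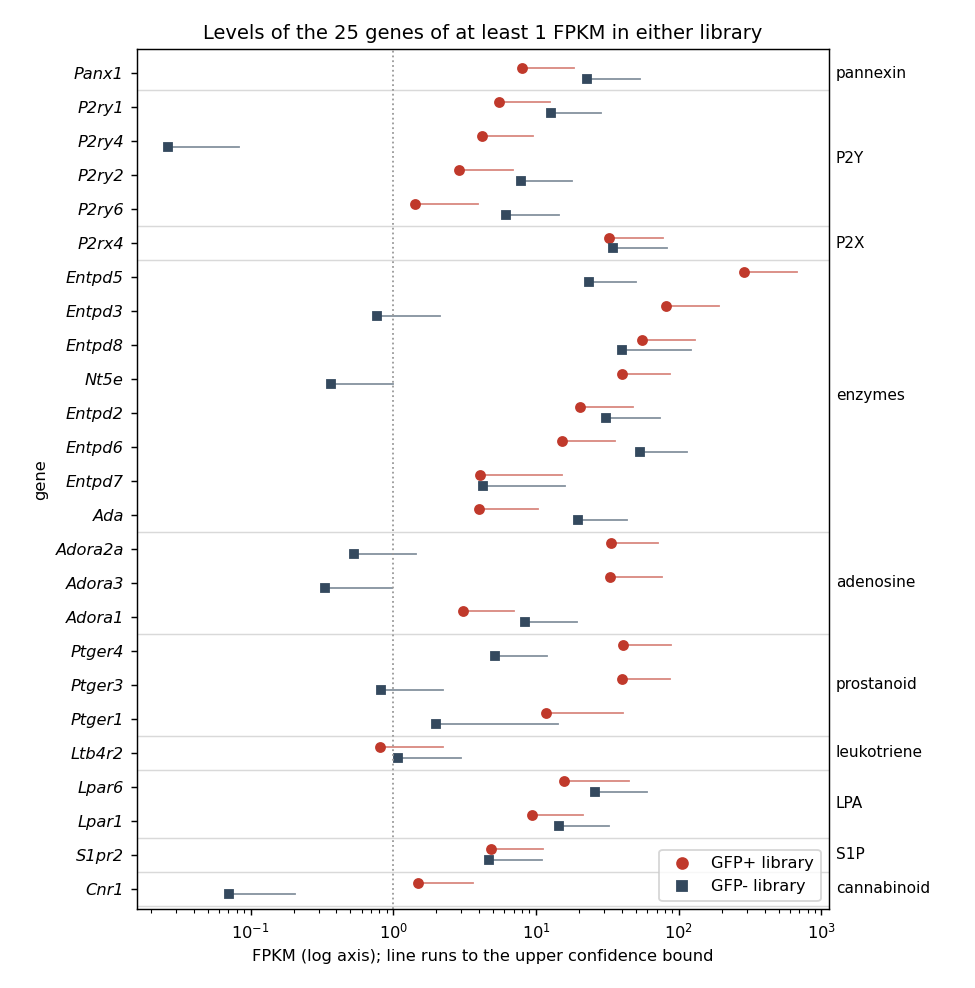
FPKM (log axis) is given by role for the 25 genes that reached 1 FPKM in a library, circles for the GFP+ library above squares for the GFP- library, with lines up to the deposited upper confidence bound. *Entpd3*, *Nt5e*, *Adora2a*, *Adora3* and *Ptger3* lie between 32.9 and 81.3 FPKM in GFP+ and below 1 FPKM in GFP-.

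Genes that make, move or degrade the ligands, and related receptors, were taken from 5 further lists. The shares to set beside each list's counts are those of all genes compared, 7.09% higher and 4.59% lower. Of 23 purine genes 16 were compared, and of these 0 were at least 4-fold higher and 1 was lower, *Adk* (adenosine kinase, which takes adenosine into AMP inside the cell), at 39.0 FPKM in GFP+ cells against 213 FPKM in GFP- cells. *Dpp4*, a surface peptidase that binds adenosine deaminase in humans, was at 111 FPKM in GFP+ cells against 29.0 FPKM in GFP- cells (1.90). *Enpp1* and *Pnp* had differences of -1.59 and -1.33. The median over the 16 was -0.17. With a median ratio of 0 or a common total the counts were 1 higher and 0 lower.

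Of 21 prostaglandin and leukotriene genes 14 were compared, and of these 2 were at least 4-fold higher and 2 lower, with a median of -1.22. *Slco2a1*, the transporter that takes up prostaglandins, was at 127 FPKM in GFP+ cells against 1.27 FPKM in GFP- cells (5.81). *Alox15*, a lipoxygenase, was at 17.2 FPKM in GFP+ cells against 1.13 FPKM in GFP- cells (3.09). *Ptges2*, named for prostaglandin E synthesis, was at 19.8 FPKM in GFP+ cells against 101 FPKM in GFP- cells (-2.29), and *Cbr1*, a carbonyl reductase, at 76.6 FPKM in GFP+ cells against 354 FPKM in GFP- cells (-2.20). Under both other scalings neither was 4-fold lower, and 7 genes of the list were with a pseudocount of 0.1. Tuft cells are a known source of eicosanoids, and the tuft marker sums are those given above. *Alox5ap* and *Hpgds* are on both lists, so these sums are not independent of the genes here. The part of tuft cells was not tested.

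Of 19 lysophospholipid and sphingosine phosphate genes 16 were compared, and of these 1 was at least 4-fold higher and 0 lower, with a median of 0.20. It was *Enpp2*, autotaxin, the secreted enzyme that makes lysophosphatidic acid, at 31.3 FPKM in GFP+ cells against 0.113 FPKM in GFP- cells (4.86). *Ppap2c*, a lipid phosphatase, was at 79.6 FPKM in GFP+ cells against 239 FPKM in GFP- cells (-1.57), and *Spns2* and *Sphk1*, which export and make sphingosine 1-phosphate, had differences of 1.42 and -1.09. Of 10 endocannabinoid genes, all compared, 2 were at least 4-fold higher and 0 lower, with a median of -0.27; with a pseudocount of 5 the first count was 1, as it was for the prostaglandin list. *Dagla*, which makes 2-arachidonoylglycerol (2-AG), was at 21.1 FPKM in GFP+ cells against 0.984 FPKM in GFP- cells (3.48), and *Mgll*, which degrades it, at 14.0 FPKM in GFP+ cells against 0.693 FPKM in GFP- cells (3.15). *Abhd4* and *Abhd6* had differences of -0.87 and -0.75. Of 19 related receptors outside the name rule 4 were compared, and none passed the limit, while 1 was higher with a pseudocount of 0.1 or the median ratio set to 0. *Gpr55* was at 2.72 FPKM in GFP+ cells against 0.193 FPKM in GFP- cells (1.64), *Gpr35* at 0.745 FPKM in GFP+ cells against 2.79 FPKM in GFP- cells (-1.12), and *Lpar5* and *Ffar4* had -0.93 and -0.36.

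**Figure D4:**
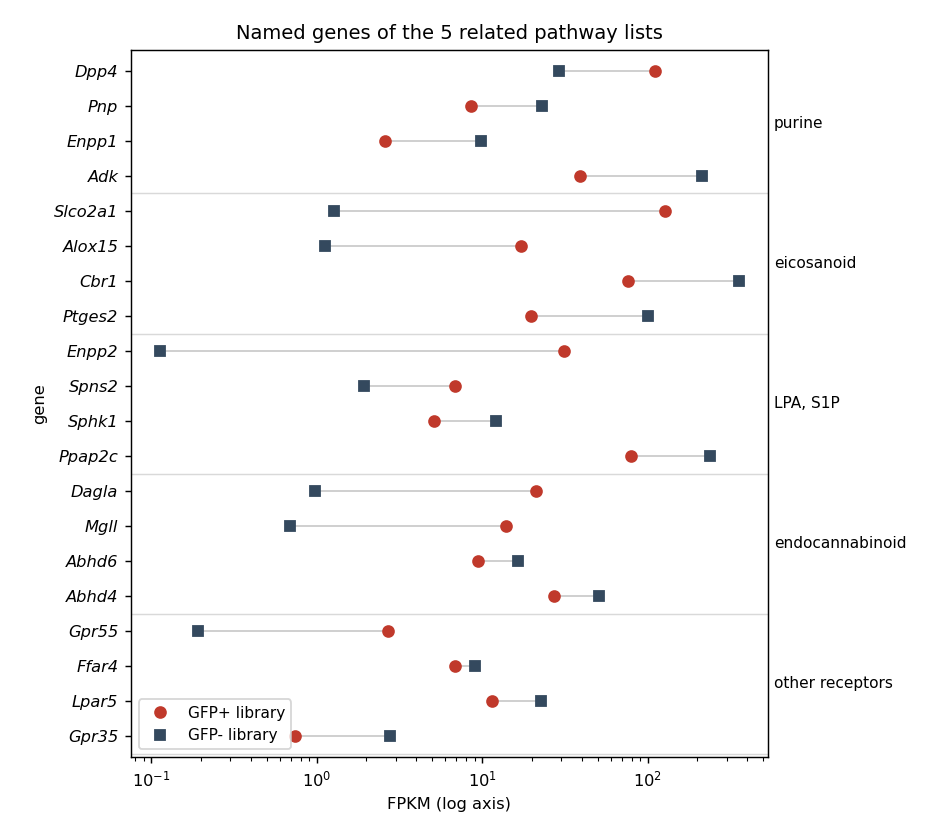
The FPKM (log axis) of the genes named from the 5 related lists are given with circles for the GFP+ library and squares for the GFP- library, joined by a line. *Slco2a1* (127 FPKM in GFP+ cells against 1.27 FPKM in GFP- cells) and *Enpp2* (31.3 FPKM in GFP+ cells against 0.113 FPKM in GFP- cells) have the longest lines.

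Scaling matters for the direction of small differences. As deposited, GFP+ over GFP- log2 ratios had a median of -0.50 among the 5563 genes that reached 10 FPKM in each library. With that median set to 0 or with both libraries brought to a common total, the median over all genes compared was 0.35 or 0.45 instead of -0.12. With the median ratio set to 0, 9 members were higher and 0 lower, and of all genes 1317 (10.8%) were higher and 184 (1.51%) lower, instead of 841 and 545. With a common total, 9 members were higher and 0 lower, and of all genes 1338 (11.2%) were higher and 130 (1.08%) lower. The totals brought together were 407210 FPKM in GFP+ and 626177 FPKM in GFP-. Both leave out the 5 rows without an estimate in GFP+, *Chga* and *Chgb* among them. They are therefore not full library totals, and signs that change only under this scaling rest on that choice. With a pseudocount of 0.1 the members split into 10 and 2, beside 12.8% and 6.82% of all genes, and with a pseudocount of 5 into 7 and 0, beside 2.97% and 2.65%. A filter of 5 FPKM left 8 higher and 1 lower, beside 8.16% and 5.82% of all genes. Without a filter the lower share of all genes was 2.32%. Taking each row by itself (7.08% higher) or only rows with the status OK (7.08% higher and 4.6% lower) left the members at 9 and 1. *Adora2a*, *Adora3*, *Entpd3*, *Entpd5*, *Nt5e*, *Ptger3* and *Ptger4* passed the limit under each of the 8 alternatives computed. *Panx1*, *P2ry1*, *P2ry2*, *P2ry6*, *Adora1*, *Entpd6* and *Ada* stayed below 0 under both scalings.

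**Figure D5:**
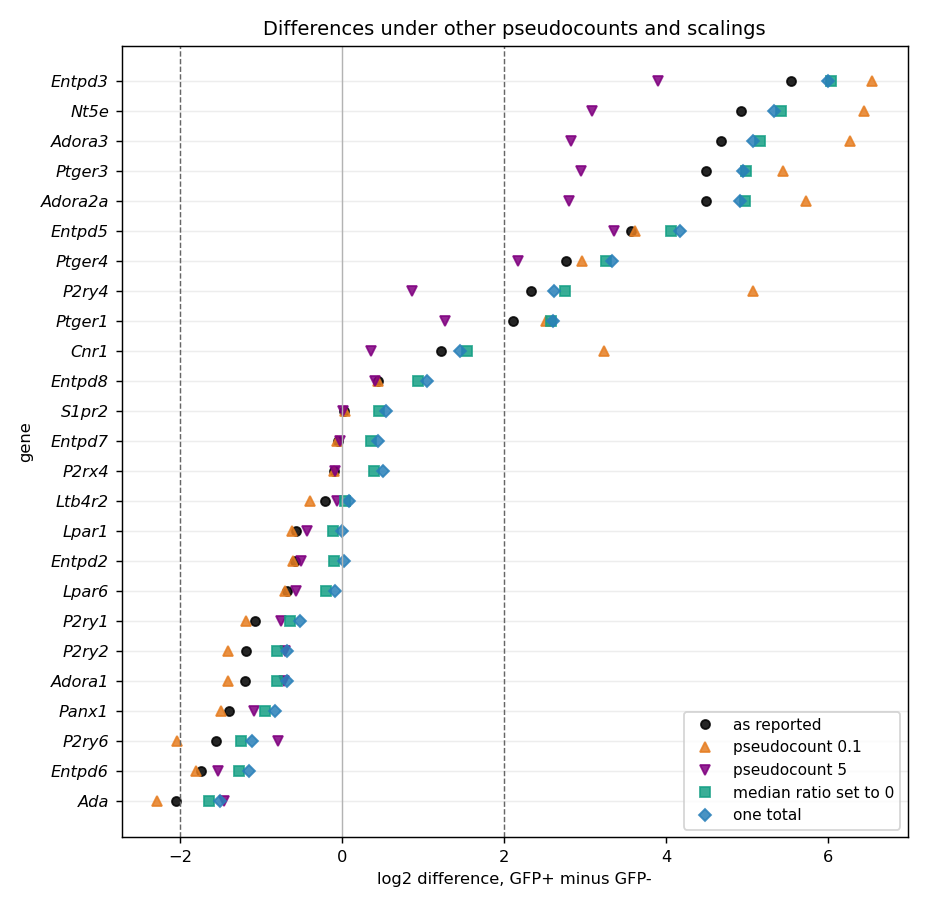
For each of the 25 genes the log2 difference (x axis, GFP+ minus GFP-) is shown as reported and under 2 other pseudocounts and 2 other scalings; dashed lines mark the 4-fold limits. The 7 topmost genes lie right of the upper limit under all 5 settings shown, and *P2ry4* and *Ptger1* fall short of it with a pseudocount of 5. *Ada* is past the lower limit as reported and with a pseudocount of 0.1, and falls short of it under the other settings shown.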

How the data were processed

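PolyA+ RNA of the GFP+ and GFP- fractions was amplified with the SMARTer Ultra Low Input kit, per the labels' protocols. The deposited values are FPKM with confidence bounds and a status, as the file headers name them. The submitters' processing notes list Cuffdiff, Cufflinks, TopHat2 0.7, FastQC and the build mm10; annotation, scaling and treatment of multiply mapped reads are not given in the labels. The 5 rows with the status HIDATA in GFP+ had no estimate and were left out, and FPKM was summed per symbol (pandas 2.3.3). Symbols reaching 1 FPKM in their higher library entered the comparison, with a pseudocount of 1 and a limit of 2 on the log2 scale, which understates differences of low genes. With 1 library per group no test, interval or replicate check is possible. Locus starts were shifted to count from 1. Exon overlaps and transcript lengths came from GENCODE M21. Fragment steps were read from 827 genes of 1 transcript over 3 kb; 60.2% of 83 low values in GFP+ and 72.5% of 109 in GFP- lay within 0.1 of a whole number, with the unit chosen on the same values. All members are named, and up to 4 genes of each further list, by absolute difference. Some neighbouring and marker genes are not reported here. Members and lists were chosen with earlier results of these data known.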

Additional observations from a re-analysis of the deposited data

How the results depend on the processing

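No paired analysis was possible because there is 1 library per fraction, and no replicate could be left out. The count of members at least 4-fold higher (9) ranged from 7 (pseudocount of 5) to 10 (pseudocount of 0.1) over the 8 alternatives. It was 7 of 20 without members sharing at least 10% of their exonic bases with another gene, an alternative chosen after seeing the data. The count of members at least 4-fold lower (1) was 2 with a pseudocount of 0.1, and 0 with a pseudocount of 5, with the median ratio set to 0 and with a common total. The median over members (-0.06) was 0.42 with the median ratio set to 0, 0.51 with a common total, 0.023 without the filter and -0.33 with a filter of 5 FPKM. Over all genes, 1524 were higher with a pseudocount of 0.1, 353 higher and 315 lower with 5, 1317 higher and 184 lower with the median ratio set to 0, and 1338 higher and 130 lower with a common total. Of 195 recomputed member values, 5 lost and 2 gained a call, 0 called values changed sign, and 8 uncalled values changed sign. The causes were not tested. Very low values, such as *P2ry4* in GFP- (0.0264 FPKM), are uncertain, as depth is known only from the inferred steps.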
